A study of Mus musculus with 2 samples.

Results

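Integrins are the receptors through which cells hold on to the extracellular matrix, and 10 integrin subunit genes were followed in mouse embryonic stem cells (mESCs) after depletion of AIMP3. Members were all probes on the array whose accession belongs to *Itga3*, *Itga5*, *Itga6*, *Itga7*, *Itga9*, *Itgav*, *Itgb1*, *Itgb3*, *Itgb4* or *Itgb5*, which gave 13 probes for 10 genes among 55681 probes for 37018 genes or accessions. Of these, 12 probes covering all 10 genes gave a signal well above background and were tested. The second *Itgb3* probe was not well above background in any channel and was left out.

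Each integrin is a pair of 1 α and 1 β chain, and the pair decides the ligand. The subunits encoded by *Itga3*, *Itga6* and *Itga7* (with *Itgb1*) and the pair of *Itga6* and *Itgb4* bind laminins of the basement membrane, the pair of *Itga5* and *Itgb1* binds fibronectin, and *Itgav* with *Itgb3* or *Itgb5* binds vitronectin and other ligands that carry the RGD motif. Inside the cell, the β tails recruit talin and kindlin, which switch the receptor on and connect it to actin through adaptors and kinases. mESCs are known to attach through laminin receptors, with *Itga6* as a long-used surface marker of stem cells.

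All samples came from mESCs with the genotype *AIMP3* f/f;Cre-ERT2, established from blastocysts, so that treated and control cells alike carry the floxed alleles and the tamoxifen-activated Cre. Deletion was induced in 2 replicates with 4-OHT at 2 μM over 4 days, while control cells were given its solvent ethanol in the same medium with LIF; the labels name MEF feeders for routine culture and the methods MEF-conditioned medium for drug treatment. On each of 2 Agilent arrays the Cy5 channel holds 1 AIMP3-depleted replicate and the Cy3 channel the same pool of control RNA, which makes the control 1 sample without a spread of its own. Nothing in the labels says that the replicates were separate cultures. The p-values and intervals of limma rest on the spread between these 2 samples, pooled with a spread shared by all tested probes. With 1 residual and 5.28 prior degrees of freedom, the shared spread carries most of the weight. The dyes were not swapped and no cells without Cre were treated, so that loss of AIMP3, the drug, active Cre and a gene-specific dye effect cannot be told apart.

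*Eef1e1*, the gene of AIMP3, had a log2 ratio of -0.90 on either array (adjusted p = 7.71e-05, limma). All 12 of 12 markers of mESCs were well above background in both channels, and their summed signal lay between 152792 and 154159 in the control channel and between 144739 and 145355 in the AIMP3-depleted channel. In such sums over different probes, here and below, the brightest probes weigh most, and a sum is not an amount of RNA. The median signal over background was between 2.68 and 3.31 and no spot was saturated. The number of arrays, 2, limits the precision. Values below are log2 ratios of AIMP3-depleted over control, and a gene was counted as raised when its brightest probe passed 1.5-fold with an unadjusted p under 0.05 by limma, the threshold of the study. Adjusted p-values are Benjamini-Hochberg values of limma over all 33012 tested probes.

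Promoter sequences are shown for 4 members so that genes that rose past 1.5-fold (*Itga5*, *Itgb1* and *Itga3*) can be read next to one that did not (*Itgb5*). The RefSeq promoter table on GRCm38.p6 held windows of 300 bases (250 before and 50 after the start) for 6 of the 10 members, in 7 windows. Capitals mark the GC box, GGGCGG on either strand.
*Itga5*, chr15:103366742-103367041, minus strand: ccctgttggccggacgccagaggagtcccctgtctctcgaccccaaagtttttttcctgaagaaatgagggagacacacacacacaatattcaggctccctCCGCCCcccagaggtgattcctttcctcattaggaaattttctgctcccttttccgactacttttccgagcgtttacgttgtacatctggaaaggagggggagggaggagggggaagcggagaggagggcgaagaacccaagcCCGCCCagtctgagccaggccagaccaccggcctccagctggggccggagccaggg
*Itgb1*, chr8:128685404-128685703, plus strand: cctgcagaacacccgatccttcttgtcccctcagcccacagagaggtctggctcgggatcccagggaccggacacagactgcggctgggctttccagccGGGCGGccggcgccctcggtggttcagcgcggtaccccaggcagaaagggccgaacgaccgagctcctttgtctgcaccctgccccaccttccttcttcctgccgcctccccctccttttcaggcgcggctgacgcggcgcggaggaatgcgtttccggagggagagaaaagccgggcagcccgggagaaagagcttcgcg
*Itga3*, chr11:95076665-95076964, minus strand: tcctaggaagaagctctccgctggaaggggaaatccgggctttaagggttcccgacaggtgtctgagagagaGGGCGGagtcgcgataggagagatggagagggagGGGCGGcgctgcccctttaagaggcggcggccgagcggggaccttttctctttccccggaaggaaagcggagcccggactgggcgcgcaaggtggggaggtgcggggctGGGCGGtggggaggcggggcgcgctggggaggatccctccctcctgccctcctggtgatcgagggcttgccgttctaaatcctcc
*Itgb5*, chr16:33829415-33829714, plus strand: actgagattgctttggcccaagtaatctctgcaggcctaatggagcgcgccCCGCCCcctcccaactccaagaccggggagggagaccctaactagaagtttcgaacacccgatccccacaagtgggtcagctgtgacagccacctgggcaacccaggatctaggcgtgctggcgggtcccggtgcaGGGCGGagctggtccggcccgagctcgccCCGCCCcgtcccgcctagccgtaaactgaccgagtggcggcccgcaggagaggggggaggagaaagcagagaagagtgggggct
The *Itga5* window held 2 GC boxes, that of *Itgb1* 1, the *Itga3* window 3 and that of *Itgb5* 3. At least 1 GC box was present for 5 of the 6 members with a window (*Itga9* was the exception), against 35.7% of all 32851 promoter windows of this length. The members are counted here by gene, and both *Itga3* windows held a GC box. The members' windows held 52.3% to 67.3% G and C, against a median of 52.7% over all windows. The part of this base content in the contrast was not tested. The TATA box (TATAAA, either strand) was in 0 of the 7 windows and in 13.6% of all windows, and the AP-1 site (TGANTCA) was in 2, the other *Itga3* window and that of *Itga9*, against 7.81% of all.

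In AIMP3-depleted mESCs, 4 of the 10 integrin subunits rose past 1.5-fold (*Itga5*, *Itgb4*, *Itgb1* and *Itga3*) and 0 fell past it, where 5.52% of the 24022 tested genes were raised and 0.791% were lowered. At any fold, 8 members were higher and 0 were lower with an adjusted p under 0.05 by limma, against 29.4% and 22.4% of all tested genes. The median log2 ratio of the members was 0.52 (0.53 on either array), and that of all tested genes was 0.02. At 2-fold, 0 members and 1.17% of all tested genes were raised. In a bulk RNA sample, a change in the number of cells of a type and a change in RNA per cell cannot be told apart. The genes just inside and just outside the threshold of 1.5-fold, which is 0.585 on the log2 scale, were *Itga3* at 0.60 and *Itga7* at 0.54, so the count of 4 divides a continuous row of values.

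**Figure D1:**
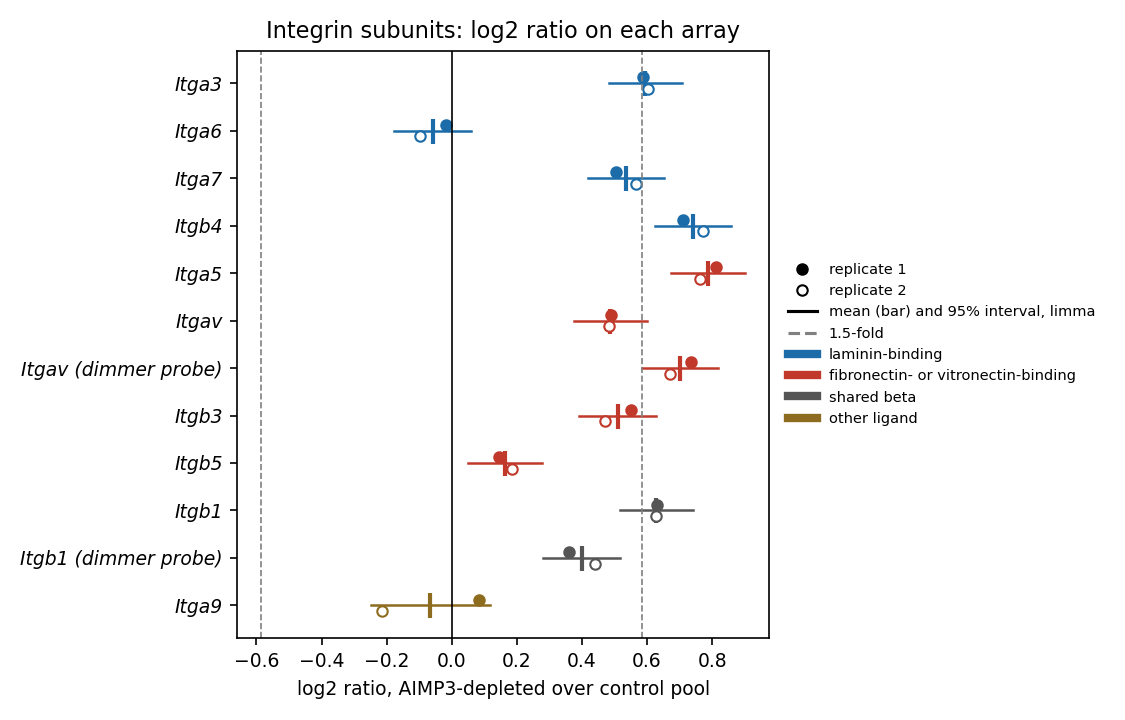
Log2 ratio of AIMP3-depleted over control (horizontal axis) for the 12 tested integrin probes, with filled points for replicate 1, open points for replicate 2, the mean as a vertical bar and the 95% interval of limma as a line; colours give the ligand class and dashed lines 1.5-fold. *Itga5*, *Itgb4* and the dimmer *Itgav* probe lie wholly to the right of the upper line, *Itga6* and *Itga9* lie around 0, and both ligand classes hold high and low members.

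Among laminin-binding subunits, *Itgb4* had the largest log2 ratio. It encodes the β chain that pairs with *Itga6* alone and anchors hemidesmosomes to keratin filaments through plectin. Its processed signal was 797 and 808 in AIMP3-depleted cells, against 500 and 491 in the control pool. The log2 ratio was 0.71 and 0.77 on the arrays, with a mean of 0.74 ± 0.044 (SD, n = 2; adjusted p = 0.000132 by limma) and a 95% interval from 0.63 to 0.86. Both AIMP3-depleted signals were above both control signals.

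*Itga3*, the α chain of a receptor for laminins of epithelial basement membranes, gave 1703 and 1679 in AIMP3-depleted cells and 1167 and 1128 in the control pool. The log2 ratio was 0.59 and 0.60 (mean 0.60 ± 0.0088, SD, n = 2; adjusted p = 0.000233 by limma). This is the member closest to the threshold, with an interval from 0.48 to 0.71 that contains it. *Itga7*, the laminin receptor chain best known from muscle, gave 1608 and 1643 against 1174 and 1109. Its log2 ratio was 0.50 and 0.57 (mean 0.54 ± 0.044, SD, n = 2; adjusted p = 0.000368 by limma), under 1.5-fold.

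*Itga6*, the α partner of *Itgb4*, did not follow it. Its signal was 27035 and 27205 in AIMP3-depleted cells and 27734 and 28635 in the control pool, so both AIMP3-depleted values lay slightly below both control values. The log2 ratio was -0.02 and -0.10 (mean -0.06 ± 0.058, SD, n = 2; adjusted p = 0.358 by limma), and the interval from -0.18 to 0.06 leaves out a change of 1.5-fold in either direction. With each array centred on its median in place of loess, the mean was 0.36, which is 0.18 above the median of all tested genes under that setting. Under that setting the median of all tested genes moved to 0.18 and that of the brightest genes, to which *Itga6* belongs, to 0.28.

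Among fibronectin- and vitronectin-binding subunits, *Itga5*, which encodes the α chain of the classical fibronectin receptor, had the highest mean log2 ratio of the 10 members after loess. Its signal was 742 and 729 in AIMP3-depleted cells against 443 and 450 in the control pool. The log2 ratio was 0.81 and 0.76, with a mean of 0.79 ± 0.035 (SD, n = 2; adjusted p = 0.000107 by limma) and an interval from 0.67 to 0.90. Of all tested genes, 97.3% had a lower ratio.

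*Itgav* encodes the α chain shared by the vitronectin receptors, and 2 probes of the same accession measured it. The brighter one gave 648 and 647 in AIMP3-depleted cells against 467 and 440, with log2 ratios of 0.49 and 0.48 (mean 0.49 ± 0.0046, SD, n = 2; adjusted p = 0.00046 by limma). The dimmer one gave log2 ratios of 0.74 and 0.67 with a mean of 0.70, past 1.5-fold. The probes agree in direction and differ by more than the arrays do, so the place of *Itgav* in the order of members depends on the probe.

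*Itgb3*, a β chain of vitronectin receptors, gave 773 and 691 against 547 and 509, and its log2 ratio was 0.55 and 0.47 (mean 0.51 ± 0.056, SD, n = 2; adjusted p = 0.000475 by limma). *Itgb5*, which pairs with *Itgav* alone, gave 5797 and 5727 against 5162 and 4978. Its log2 ratio was 0.15 and 0.18 (mean 0.16 ± 0.027, SD, n = 2; adjusted p = 0.0272 by limma), a rise of 1.12-fold. The partner chains of *Itgav* therefore had different ratios, and the intervals of *Itgb3* (0.39 to 0.63) and *Itgb5* (0.05 to 0.28) do not overlap.

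*Itgb1* is the β chain common to the receptors of *Itga3*, *Itga5*, *Itga6*, *Itga7* and *Itga9*, and *Itgav* can use it too. Its brighter probe gave 3834 and 3666 in AIMP3-depleted cells against 2555 and 2445 in the control pool. The log2 ratio was 0.63 and 0.63 (mean 0.63 ± 0.0030, SD, n = 2; adjusted p = 0.000196 by limma). The dimmer probe of the same accession gave 0.36 and 0.44 with a mean of 0.40 (adjusted p = 0.00113 by limma), the same direction and under 1.5-fold.

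*Itga9*, whose receptor binds tenascin C, osteopontin and VCAM1, was the member on which the arrays disagreed. Its signal was 163 and 163 in the control pool and 164 and 138 in AIMP3-depleted cells. The log2 ratio was 0.08 for replicate 1 and -0.21 for replicate 2 (mean -0.07 ± 0.21, SD, n = 2; adjusted p = 0.499 by limma). The interval from -0.25 to 0.12 does not reach 1.5-fold on either side, but it rests mostly on the spread shared by all tested probes.

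**Figure D2:**
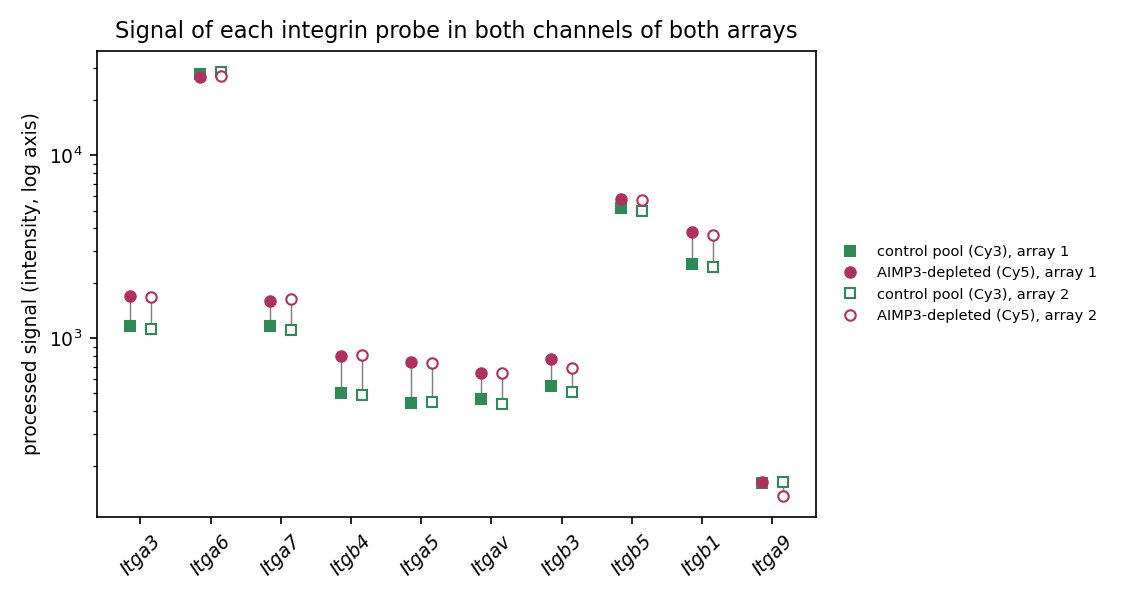
Processed signal (intensity, log axis) of the brightest probe of each integrin subunit, with squares for the control pool and circles for AIMP3-depleted cells, filled for the array of replicate 1 and open for that of replicate 2. The control pool was the same RNA on both arrays, so the distance between its squares is technical; signals of different probes are not comparable as amounts of RNA.

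The order of mean log2 ratios was *Itga5*, *Itgb4*, *Itgb1*, *Itga3*, *Itga7*, *Itgb3*, *Itgav*, *Itgb5*, *Itga6* and *Itga9*. Among the 9 pairs of neighbours, the values of the arrays overlapped in 4 (*Itga5* and *Itgb4*, *Itga7* and *Itgb3*, *Itgb3* and *Itgav*, *Itga6* and *Itga9*) and did not in 5. The 95% intervals overlapped in 8, and the pair in which they did not was *Itgav* (0.37 to 0.60) and *Itgb5* (0.05 to 0.28). The members thus fell into 7 genes between 0.49 and 0.79 and 3 genes between -0.07 and 0.16. By the brightest probes, both chains of the fibronectin receptor and both chains of the *Itga3* receptor passed 1.5-fold, and in the hemidesmosomal pair of *Itga6* and *Itgb4* the β chain alone did. Both *Itgb1* calls rest on its brighter probe (the mean of its probes was 0.51), and *Itgb1* and *Itga3* were under 1.5-fold in the processed signals.

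The 4 laminin-binding genes were set against the 4 fibronectin- and vitronectin-binding genes, leaving out the shared *Itgb1* and *Itga9*. The median log2 ratio was 0.55 and 0.58 on the arrays for the laminin-binding class, and 0.52 and 0.48 for the other class. The difference of the medians was 0.03 for replicate 1 and 0.11 for replicate 2, with an SD of 0.057 over arrays. It was -0.03 when class means were compared, so the sign of the difference rests on the way the class is summed up. Leaving out 1 gene at a time kept it between 0.04 and 0.10. Each class ran from a gene near 0 (*Itga6* at -0.06, *Itgb5* at 0.16) to one near 0.8 (*Itgb4* at 0.74, *Itga5* at 0.79), a far wider range than the difference between classes. Genes are not replicates, and no test was made.

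The count of raised members changed with the way the ratio was computed. *Itga5* and *Itgb4* were past 1.5-fold under all 6 combinations of background correction and normalization, the authors' table included. *Itgb1* and *Itga3* were just below it in the scanner's own processed signals (0.58 and 0.56), and at 0.61 and 0.59 relative to the median of all tested genes there. The authors' deposited table holds the same ratios moved up by 0.040, and there they were 0.62 and 0.60. With median centring 7 members passed, where 11.8% of all tested genes were raised, and relative to the median of all tested genes under that setting *Itga7* was at 0.57, *Itgb3* at 0.53 and *Itgav* at 0.50.

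**Figure D3:**
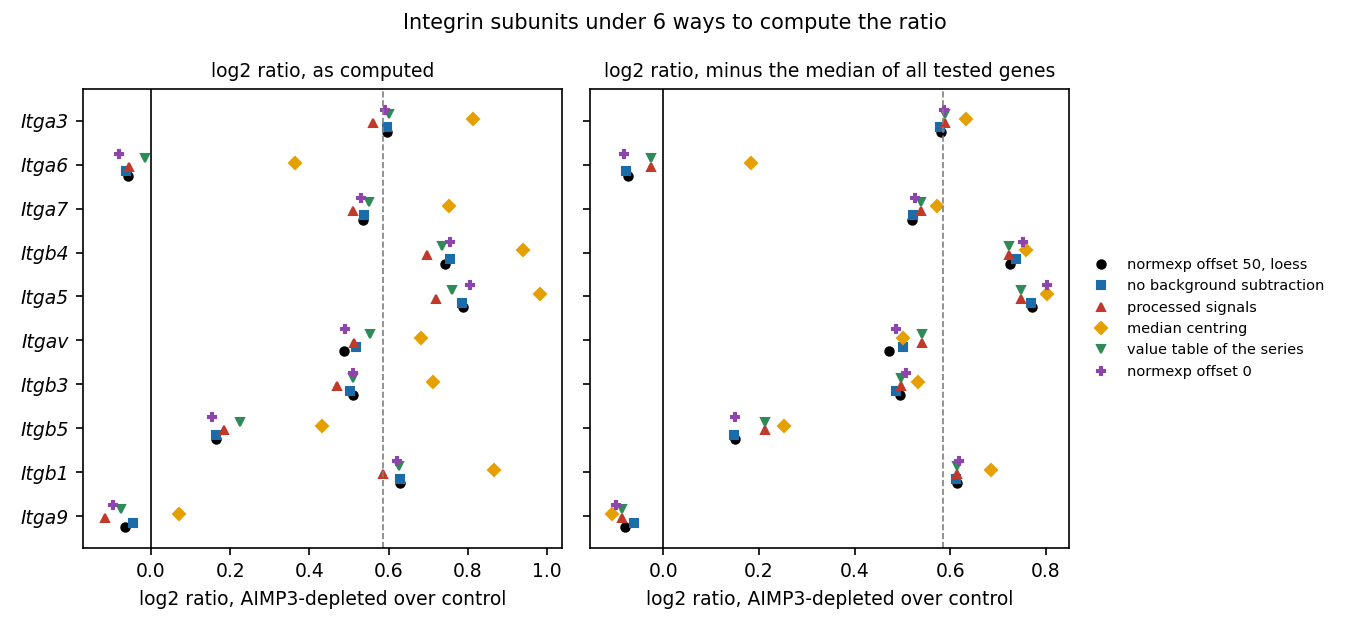
Mean log2 ratio over 2 arrays for each integrin subunit under 6 combinations of background correction and dye normalization (symbols), as computed on the left and after subtraction of the median of all tested genes on the right; the dashed line is 1.5-fold. Median centring (diamonds) moves all members to the right, and after subtraction *Itga6* keeps the largest displacement, from -0.07 to 0.18.

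None of the other tested integrin subunits passed 1.5-fold by its brightest probe, although a dimmer probe of *Itgam* had a mean of 0.88. Of 16 listed, 8 could be tested, and 0 of these were raised and 0 lowered, with a median of 0.12 (all tested genes 0.02). *Itga8*, an RGD-binding α chain, was the highest at 0.49 and 0.59 (mean 0.54, adjusted p = 0.000416 by limma), followed by *Itga11*, a collagen receptor chain, at 0.43 and 0.36 (mean 0.39). Among leukocyte chains, *Itgal* and *Itgb7* had means of -0.16 and -0.23 by their brightest probes, and *Itgam* and *Itgb2* had means of 0.27 and 0.09, while the dimmer *Itgal* probe was at 0.04. The number raised was 1 with no background subtraction, the processed signals, the authors' table, an offset of 0 or without replicate 1, and 2 with median centring. At any fold, 3 of the 8 were higher and 2 were lower with an adjusted p under 0.05 by limma, where 29.4% and 22.4% of all tested genes were. *Itga2*, *Itga2b*, *Itgad*, *Itgax*, *Itgb6* and *Itgb8* were not well above background.

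Some ligands of the members rose past 1.5-fold in each list, where 5.52% of all tested genes were raised. Of 11 laminin chains 10 were tested and 3 passed 1.5-fold, among them *Lama1* (1.04 and 1.00) and *Lamb1* (0.72 and 0.65), with 0 lowered and a median of 0.28. *Lama1* and *Lamb1* are chains of the laminin of early embryonic basement membranes. Of 17 other ligands 15 were tested, and 7 passed 1.5-fold with 0 lowered and a median of 0.53. The largest was *Thbs1*, the matrix protein thrombospondin, at 1.13 and 1.27, followed by *Fbn1* (fibrillin) at 1.08 and 0.92 and the matricellular *Ccn1* at 0.98 and 0.96. *Vcam1*, a ligand of the *Itga9* receptor, was at 1.04 and 0.84. The genes of its other named ligands did not pass 1.5-fold: *Tnc* (tenascin C) was at 0.37 and 0.48, and *Spp1* (osteopontin) at -0.08 and -0.05. The fibronectin gene itself, *Fn1*, was at 0.46 and 0.39 (mean 0.43, adjusted p = 0.000853 by limma), under 1.5-fold, and *Vtn*, which encodes vitronectin, was not well above background.

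Of 10 genes whose products sit beside laminin receptors, all were tested, with a median of 0.33. Of these 2 passed 1.5-fold and 0 were lowered, where 5.52% of all tested genes were raised. The number raised was 1 with the processed signals or the authors' table and 5 with median centring. *Plec*, which encodes the plectin that ties the *Itgb4* tail to keratins, had log2 ratios of 0.65 and 0.68 (mean 0.67, adjusted p = 0.000167 by limma). The tetraspanin *Cd81* was at 0.62 and 0.62, whereas the laminin-receptor tetraspanin *Cd151* was at 0.33 and 0.43. *Col17a1*, a further hemidesmosomal gene, was at 0.00 and -0.01 (mean -0.0030, adjusted p = 0.962 by limma).

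Of 12 genes that switch integrins on or hold them off, 11 were tested, with a median of 0.21. Of these 0 were lowered past 1.5-fold and 1 was raised past it, where 5.52% of all tested genes were raised. That gene was *Apbb1ip*, an adaptor between the GTPase Rap and talin, at 0.79 and 0.94. The number raised was 0 with the methods' t-test and 5 with median centring. Talin itself, *Tln1*, was at 0.49 and 0.48 by its brighter probe and at a mean of 0.04 by the other. The second talin gene, *Tln2*, was at -0.24 and -0.42, and the kindlin gene *Fermt2* was at 0.28 and 0.13. At any fold, 6 of the 11 were higher and 2, *Tln2* among them, were lower with an adjusted p under 0.05 by limma. Of all tested genes, 29.4% and 22.4% were.

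Of 27 downstream adaptors and kinases 26 were tested, and 7 passed 1.5-fold with 0 lowered and a median of 0.31. *Lpp* (1.14 and 1.13) and *Zyx* (1.00 and 1.12) encode zyxin-family proteins of mature adhesions. *Parva* (0.93 and 0.97) and *Ilk* (0.83 and 0.86) encode partners in the complex that binds β tails, whereas of the genes for its PINCH component *Lims1* was at -0.04 and -0.08 and *Lims2* at 0.57 and 0.37. *Bcar1*, a docking protein, was at 0.71 and 0.81, *Actn1* (α-actinin) at 0.73 and 0.65, and *Vcl* (vinculin) at 0.63 and 0.63. The focal adhesion kinase *Ptk2* was at 0.39 and 0.48, under 1.5-fold. Over the 6 lists, 20 of 80 tested genes were raised and 0 were lowered, where 5.52% of all tested genes were raised. With median centring the number raised was 35, where 11.8% of all tested genes were.

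**Figure D4:**
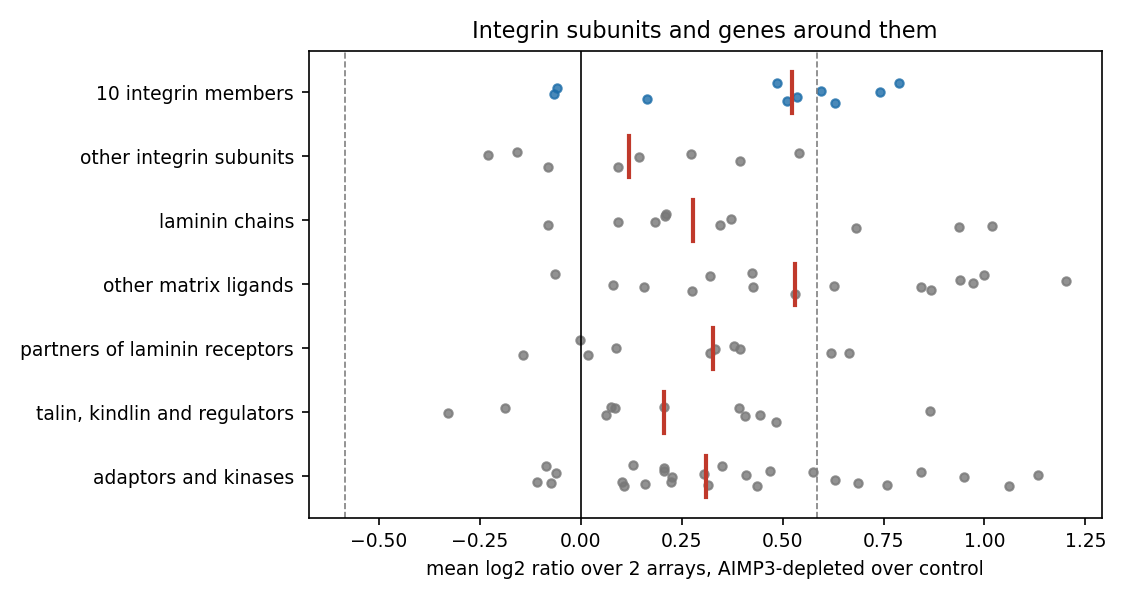
Mean log2 ratio over 2 arrays of each tested gene (points) for the 10 integrin members and the 6 lists of genes around them, with the median of each group as a red bar and 1.5-fold as dashed lines. The median is 0.52 for the members and 0.12 for the other integrin subunits, and no gene of the lists lies left of the lower dashed line.

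Markers of fibroblasts, extraembryonic endoderm and trophectoderm mostly rose past 1.5-fold beside the integrins, and those of leukocytes and endothelium mostly did not. Of all tested genes, 5.52% were raised. Of 18 fibroblast markers 16 were tested and 10 were raised, with a summed signal between 13863 and 14126 in the control channel and between 25329 and 25495 in the AIMP3-depleted channel, and *Lum* and *Fap* were not well above background. Of 15 markers of primitive and parietal endoderm 14 were tested and 13 were raised, with sums between 54107 and 58735 in the control and between 114902 and 121407 in AIMP3-depleted cells. *Hnf4a* was not well above background. Of 11 trophectoderm markers 10 were tested and 8 were raised, with sums between 34458 and 36274 and between 91409 and 100235, and *Elf5* was not well above background. Among 7 leukocyte and platelet markers *Ptprc*, *Gp9* and *Gp1bb* were not well above background and *Pf4* was raised, and of 6 endothelial markers 5 were tested and 0 were raised by their brightest probe, although a dimmer probe of *Kdr* was at 0.95 and 1.17. At any fold, 4 endothelial markers were higher and 1 was lower with an adjusted p under 0.05 by limma, and their median was 0.31. By the same measure 14 fibroblast markers were higher and 1 (*Fbln1*, mean -0.16) was lower. For trophectoderm, 9 were higher and 1 (*Tfap2c*, mean -0.21) was lower. Of the 12 mESC markers 0 were raised and 2 (*Fgf4* and *Tdgf1*) were lowered past 1.5-fold, with a median of -0.22. That number lowered was 1 with the processed signals, the authors' table or the methods' t-test and 0 with median centring, where 1 was raised. At any fold, 7 mESC markers were lower and 3 were higher with an adjusted p under 0.05 by limma. *Sox2* had a mean of -0.53, *Pou5f1* of -0.48 and *Nanog* of -0.38 (its other probe 0.06), whereas *Dppa5a* was at 0.50. The part of these cell types in the integrin ratios was not tested.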

How the data were processed

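Each of 2 replicates of AIMP3-depleted mESCs (Cy5) was compared on 1 array with the same pool of control RNA (Cy3), both arrays lying on 1 slide. The authors deposited the output of Feature Extraction (its header gives version 11.5.1.1), which holds the intensity of each spot and its local background, not normalized, and processed intensities after background subtraction and dye normalization. A deposited log10 ratio of each spot was not used. The authors' deposited value table, normalized in GeneSpring, holds log2 ratios that equal those of the processed signals plus 0.0404 and 0.0395 on the arrays, within 0.01 for 99.7% of probes, so Cy5 over Cy3 is its direction. All its columns were used and 0 were left out.

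Median signals were corrected with limma's normexp (offset 50), normalized by loess with control spots at weight 0, and averaged over spots of a probe without 215 and 227 flagged spots. A probe had to be well above background, on both arrays, in at least 1 of the channels, and the 33012 of 55681 that were so were tested against 0 with lmFit and eBayes (1 residual and 5.28 prior degrees of freedom). A gene was represented by its brightest probe. Probes were named through accessions in a RefSeq table on GRCm38.p6, which gave 14972 of the 24022 tested genes a symbol. The array was designed on mm9, so no probe coordinates are given. All members are named, and from each list of pathway genes up to 5 past the threshold in each direction; further genes of the lists were chosen after their values were seen, and 1 listed gene is not reported here by name. The members and lists were chosen with earlier results of these data known.

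For the comparison of AIMP3-depleted with control, the procedure was tested on simulated data of 24146 probes. Of 50 probes each, 50 with a log2 ratio of 1 and 41 with a ratio of 0.7 were called, 48 of those at -1 and 34 of those at -0.7, and 0 unchanged probes. The simulated probes were bright and their noise was small against the threshold, so an unchanged probe could hardly have been called. As many simulated probes rose as fell, unlike in the data. Ratios were understated by a median of 0.067 to 0.099, and an offset of 0 was added as an alternative after seeing the data. Alternatives comprised median centring, the processed signals, omission of background subtraction, filters on dim probes, the authors' table, the methods' t-test, 1 probe per gene, the mean of all probes, other thresholds and each replicate left out. Software was limma 3.58.1 in R 4.3.3.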

Additional observations from a re-analysis of the deposited data

How the results depend on the processing

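The count of 4 raised members was the same with no background subtraction, with the authors' table and with an offset of 0. It was the same without either replicate (4 and 4, by fold alone since 1 array gives no p). Both other filters, 1 probe per gene and the methods' t-test at an unadjusted threshold also gave 4. These alternatives leave the members' ratios as they were, so only the p-values could have moved the count. With the mean of all probes it was also 4, but *Itgav* (0.59) took the place of *Itgb1* (0.51). It was 2 with the processed signals, 7 with median centring, 0 at 2-fold and 8 when an adjusted p under 0.05 sufficed at any fold. After Benjamini-Hochberg adjustment the methods' t-test called 0 members and 0 of all tested genes, with 864 genes raised before adjustment. No alternative lowered a member (0 under each). *Itga9* turned to 0.0715 and *Itga6* to 0.36 with median centring, and *Itga9* lay between -0.214 and 0.0832 when 1 replicate was left out; the cause was not tested. The difference between the classes turned to -0.0337 with class means and otherwise lay between 0.01 and 0.11. Genes of the 6 lists raised were 35 with median centring and between 17 and 23 under the other alternatives, and 0 were lowered under each. No paired analysis was possible because 1 control pool served both arrays. Signals over background were 2.68 to 3.31 in the median, which bears on dim probes.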

Other observations

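Genes with more than 1 tested probe show how far a log2 ratio can depend on the probe. The probes of *Itgam* ranged from -0.05 to 0.88, those of *Arhgef7* from -0.39 to 0.21, those of *Nid1* from 0.28 to 0.87 and those of *Tns1* from 0.11 to 0.59. The control pool differed between arrays by between -0.10 and 0.05 on the log2 scale for the brightest probes of the 10 members. The AIMP3-depleted channel differed by between -0.26 for *Itga9* and 0.03 for *Itga7*.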
